A study of Mus musculus with 48 samples.

Results

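The smooth muscle contractile genes are 34 genes of the contractile machinery of smooth muscle, chosen by gene name and not by a rule on their measured levels. Earlier results of these data were known when the genes were chosen. They are 34 of the 55401 genes in the count table, every one was found there, and all 34 passed the filter on low counts, among 14618 genes tested. RNA of the colon was sequenced from 48 adult male mice of the C57BL/6J strain, killed on the second day in constant darkness at 6 circadian times (CT1, CT5, CT9, CT13, CT17 and CT21), with 4 mice of each genotype at each time. Control mice carried 2 floxed alleles of *Bmal1* and no Cre (Bmal1 fl/fl, Villin wt/wt littermates). Bmal1IEC-/- mice carried the same 2 floxed alleles and 1 copy of the Villin-Cre transgene, which is active in intestinal epithelial cells. Because Villin-Cre is not active in muscle, smooth muscle cells keep *Bmal1* in both genotypes, and each library holds RNA of the whole tissue piece, epithelium and muscle together.

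Smooth muscle surrounds the colon in layers and moves its contents by slow contraction. Calcium entering through voltage-gated channels activates myosin light chain kinase, myosin filaments then pull on actin filaments that are anchored in dense bodies and plaques, and a phosphatase switches the light chain off again. Most genes of this apparatus are transcribed by serum response factor together with its partner myocardin, which bind a DNA element named the CArG box.

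The 34 genes were read by role. The actins and the thick filament are given by *Acta2*, *Actg2*, *Myh11*, *Myl9* and *Myl6*. The switch on the light chain is given by the kinase *Mylk*, the phosphatase subunits *Ppp1r12a* and *Ppp1r12b*, the phosphatase inhibitor *Ppp1r14a* and the kinase *Dmpk*. Regulators of the thin filament are *Tagln*, *Cnn1*, *Cald1*, *Tpm1*, *Tpm2*, *Smtn* and *Lmod1*, and the intermediate filaments are *Des* and *Synm*. Dense bodies and plaques are given by *Actn1*, *Flna*, *Vcl*, *Csrp1*, *Pdlim3*, *Pdlim7*, *Ldb3*, *Synpo2* and *Pgm5*. The remaining genes are the small heat shock protein *Hspb6*, the channel genes *Kcnma1*, *Kcnmb1* and *Cacna1c*, and the transcription factors *Myocd* and *Srf*.

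RefSeq start sites of GRCm38.p6 were available for 30 of the 34 genes, as 38 windows from 250 bases before to 50 bases after a start. No window was available for *Actg2*, *Myh11*, *Tagln* and *Myocd*. A CArG box (CC, then 6 bases of A or T, then GG, searched on both strands) was found in 6 windows of 5 genes, 15.8% of the windows, and in 1.63% of all 32851 windows of that length. The stretches that hold it are shown because this element is the one that the genes' own transcription factor binds, with the box in capitals and the other bases in lower case, each read on the strand of its gene. *Srf* held 2 boxes, and 2 overlapping windows of *Ldb3* held the same box. Ldb3 lies on the minus strand at chr14:34588692-34588731, Myl6 on the minus strand at chr10:128493035-128493074, Myl9 on the plus strand at chr2:156775288-156775327, Srf on the minus strand at chr17:46556200-46556259 and Vcl on the plus strand at chr14:20929156-20929195.
Ldb3: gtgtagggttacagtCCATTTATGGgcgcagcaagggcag
Myl6: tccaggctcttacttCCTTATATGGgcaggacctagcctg
Myl9: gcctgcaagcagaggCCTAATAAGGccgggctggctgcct
Srf: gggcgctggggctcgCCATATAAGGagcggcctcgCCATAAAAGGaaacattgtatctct
Vcl: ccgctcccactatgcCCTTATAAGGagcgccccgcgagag
The clock motifs matched a lower share of these windows than of all windows. For the less frequent ones, CACGTG and TTATGNAA, 38 windows were too few to show a lower rate. CACGTG, the E-box that *Bmal1* protein binds with its partner, was found in 1 window (*Synm*), 2.63% of the windows against 7.15% of all windows. AGGTCA, the core letters of sites for Rev-erb and ROR receptors, was found in 0 of the 38 windows against 16.3% of all windows, and TTATGNAA, the letters of a D-box, in 0 against 3.39%. TATAAA was found in 4 windows (*Cald1*, *Hspb6*, *Srf* and *Synpo2*), 10.5% against 13.6%, and overlapped no CArG box. A match describes these letters only, and a window without one says nothing of sites elsewhere or of variants of the letters. The window of *Acta2*, for example, holds CCCTATATGG. This has a C among the 6 middle bases and was not counted as a CArG box.

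*Arntl*, the gene name under which *Bmal1* is listed, was read first as a check of the labels. In control mice its mean level was 67.5 CPM at CT1 (CPM, each mouse's counts scaled to the same total), fell to 6.86 CPM at CT9 and was 65.4 CPM at CT21. In Bmal1IEC-/- mice its group means stayed between 29.6 and 36.3 CPM at all 6 times. Its level did not reach 0 there, and at CT9 and CT13 it was above control (29.6 against 6.86 CPM and 30.1 against 7.80 CPM). The counts cover the whole gene, in a tissue whose other cells keep it, and the source of these reads was not tested. The log2 difference of *Arntl* over all times was 0.22 (SE 0.18, edgeR adjusted p = 0.458). In a fit of a 24-h cosine in each genotype, its rhythm passed the test in control mice (3.52 on the log2 scale from trough to peak, edgeR quasi-likelihood F test, adjusted p = 3.73e-21) and not in Bmal1IEC-/- mice (0.33, adjusted p = 0.225), and the difference between the genotypes passed it as well (adjusted p = 9.4e-14).

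The depth ran from 3144997 to 4785844 counts per mouse. Control mice had a median of 3775926 counts and Bmal1IEC-/- mice one of 3891600. The 34 genes together held 12119 ± 1025 CPM in control mice (SD, n = 24). Per kilobase of exon, the highest were *Actg2* (502 CPM per kb), *Acta2* (462), *Myl9* (379), *Myl6* (293) and *Myh11* (222), means of 47 mice with SDs of 109, 71.8, 52.8, 26.6 and 32.3. *Actg2* and *Acta2* did not differ beyond their spread. The lowest per kilobase were *Kcnma1* (2.78), *Kcnmb1* (2.7), *Cacna1c* (1.92) and *Myocd* (1.20), so channels and the muscle's transcription factor sat far below the filament proteins. The actin genes resemble each other closely in sequence, and whether reads were shared between *Acta2*, *Actg2* and other actins was not tested. *Tagln*, whose product transgelin binds actin, was low at 4.62 CPM per kb; 1349 of its 1988 exon bases overlap genes on the opposite strand, and whether the counting used strand is not given in the sources used here. *Vcl* likewise overlaps *Ap3m1* on the opposite strand over 2090 of 8191 exon bases.

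One mouse stood apart. The summed level of the 34 genes was 3849 CPM in Bmal1IEC-/- CT1 replicate SV385, against 9739, 10261 and 10361 CPM in the other 3 mice of its group, 2.63-fold below their mean. SV385 was the lowest of all 48 mice for 31 of the 34 genes. The filament proteins of smooth muscle were lowered together, in percent of the mean of the other 3 mice: *Myh11*, the smooth muscle myosin heavy chain, at 21.9%, *Acta2* at 23.9%, *Actg2* at 24.5% and the actin-binding *Cnn1* at 24.9%. *Lmod1*, which nucleates actin filaments, was lowest at 19.6% and *Myocd*, the muscle's transcriptional coactivator, followed at 20.6%, although the latter rests on 4 counts. *Vcl* (vinculin) was at 68.8% and *Actn1* (an actin crosslinker) at 79.2%, whereas *Flna* was at 26.8%, and the exceptions to the lowest rank were *Ldb3* at 95.2%, *Myl6* at 95.7% and *Srf* at 127%. In which cells of the tissue the reads of *Vcl*, *Actn1*, *Ldb3*, *Myl6* and *Srf* arose was not tested, here or below.

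**Figure D1:**
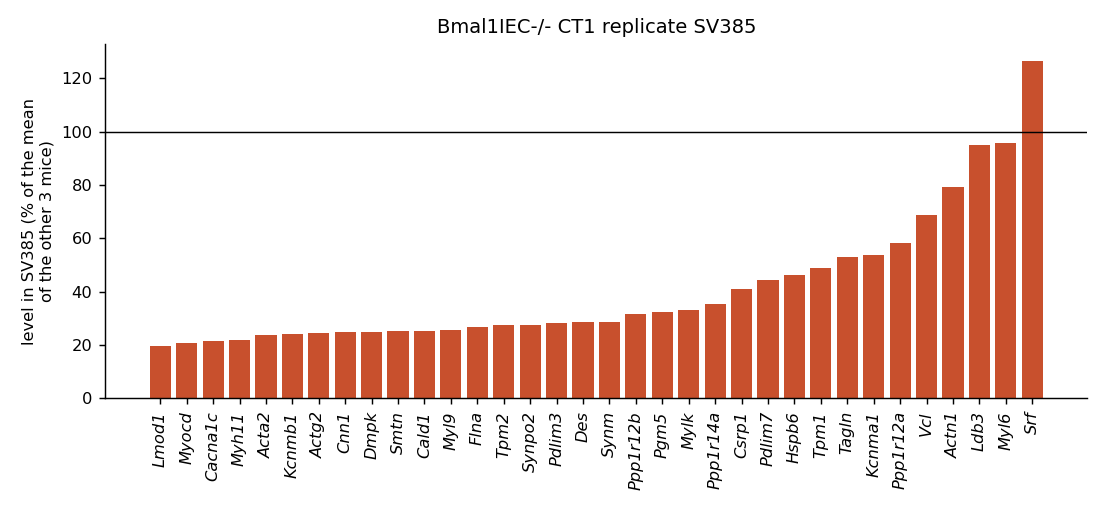
Level of each of the 34 genes in Bmal1IEC-/- CT1 replicate SV385 as a percent of the mean of the other 3 mice of its group (bars, vertical axis; the line marks 100%). The genes are ordered by this percent, from *Lmod1* at 19.6% to *Srf* at 127%, and all but *Srf* are below the line.

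Marker genes of other cell types moved in SV385 too. The 12 epithelium markers summed to 12767 CPM, the highest of the 48 mice, against a mean of 8494 CPM in the other 3 mice of its group. The sums of 8 fibroblast markers (461 CPM against 1326), 6 pericyte markers (127 against 541), 6 endothelial markers (52.6 against 133), 5 enteric glia markers (13.2 against 21.7) and 8 enteric neuron markers (112 against 186) were each the lowest of the 48 mice. The 7 immune cell markers (341 against 474) ranked 11 from the lowest and the 6 markers of interstitial cells of Cajal (957 against 917) ranked 38. In such tissue counts, fewer muscle cells and less muscle RNA per cell cannot be told apart. A second mouse of the group, SV384, summed to 9739 CPM over the 34 genes, was the lowest of the remaining 47 mice for 10 of them, and had an epithelium sum of 9336 CPM. Results are given over all 48 mice and, in a second set chosen with earlier results of these data known, without SV384 and SV385 (46 mice).

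**Figure D2:**
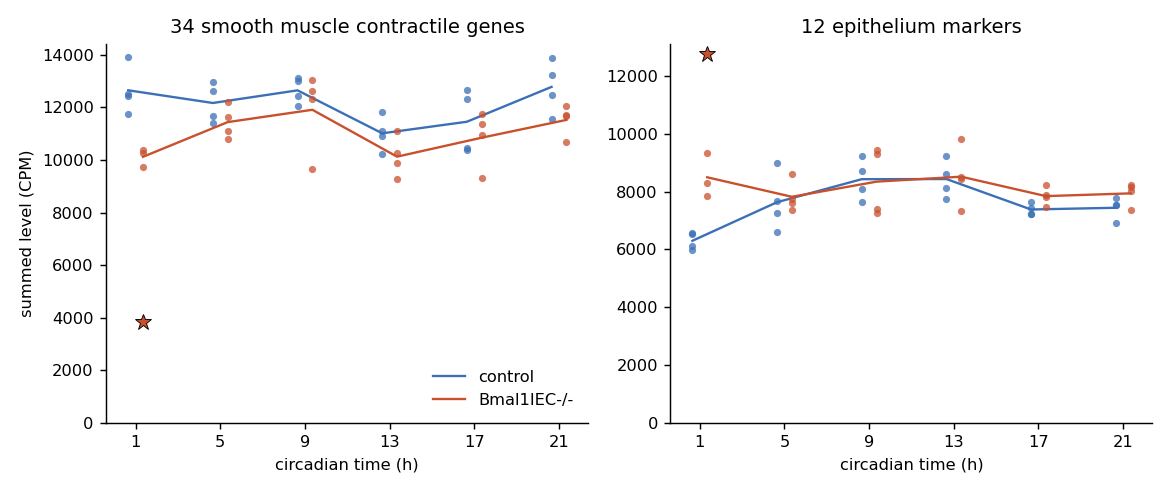
Summed level (CPM, vertical axis) of the 34 contractile genes (left) and of 12 epithelium markers (right) in each of 48 mice against circadian time (h). Points are mice, lines join group means without SV385, and the star marks SV385, at 3849 CPM on the left and 12767 CPM on the right.

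The comparison of the genotypes over all times asked whether the 34 genes differed, in RNA of the whole tissue, when the clock was removed from the epithelium. The contractile genes were lower in Bmal1IEC-/- mice by a small and broad margin: 33 of 34 had a log2 difference under 0, from -0.30 to 0.02 with a median of -0.19, whereas the median over all genes tested was 0.00. Of the 34, 6 passed the test as lower (edgeR quasi-likelihood F test with genotype and circadian time, adjusted p below 0.05), against 5.56% of all genes tested that were called lower. An unadjusted p below 0.05 was reached by 24. The share of all genes at this unadjusted threshold is not given, here or below. Without SV384 and SV385, all 34 were under 0 (-0.24 to -0.01, median -0.13) and 11 passed the test, against 5.72% of all genes. Without SV385 alone 14 passed, and with single mice left out the count ran from 5 to 14, with 11 when Bmal1IEC-/- CT13 replicate SV395 was left out. For sets with a single mouse left out, the share of all genes called is not given, here or below. None reached a fold change of 1.5.

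*Kcnma1*, the pore of the large calcium-activated potassium channel that relaxes the muscle, differed most clearly. Its level in control mice ran from 40.3 to 61.2 CPM with a median of 51.2, and in Bmal1IEC-/- mice from 21.3 to 52.7 CPM with a median of 42.7. The ranges overlapped, with the median of the Bmal1IEC-/- mice just above the lowest control mouse. Its log2 difference was -0.29 (SE 0.06, edgeR adjusted p = 0.00046), 18.1% lower, and over 46 mice -0.24 (SE 0.05, adjusted p = 0.000227). *Synpo2*, a partner of filamin and actinin in dense bodies, ran from 159 to 229 CPM in control mice (median 198) and from 41.2 to 207 CPM in Bmal1IEC-/- mice (median 159). Its median in Bmal1IEC-/- mice thus lay at the lowest level of the control mice, and its log2 difference was -0.30 (SE 0.08, adjusted p = 0.00548), 18.8% lower. *Kcnma1* and *Synpo2* passed the test over 48 and over 46 mice.

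The genes of the actins and the thick filament were all lower except *Myl6*, and none passed the test over 48 mice. *Myh11* ran from 1378 to 2264 CPM in control (median 1759) and from 268 to 2112 CPM in Bmal1IEC-/- mice (median 1577). *Acta2*, smooth muscle alpha-actin, ran from 757 to 1392 CPM in control (median 1087) and from 213 to 1277 CPM in Bmal1IEC-/- mice (median 908). The lowest value of both genes was that of SV385 and the ranges of the genotypes overlapped over most of their length. The log2 difference was -0.24 for *Myh11* (SE 0.09, adjusted p = 0.0809) and -0.19 for *Acta2* (SE 0.08, adjusted p = 0.131). Over 46 mice it was -0.16 for *Myh11* (SE 0.05, adjusted p = 0.0387), which then passed, and -0.12 for *Acta2* (SE 0.04, adjusted p = 0.0509), which did not. *Actg2*, the enteric gamma-actin, had a log2 difference of -0.25 (SE 0.09, adjusted p = 0.071) with control mice from 553 to 1206 CPM and Bmal1IEC-/- mice from 183 to 1040 CPM. *Myl6*, the essential light chain that nonmuscle myosin also uses, was the exception: it ran from 822 to 1064 CPM in control and from 811 to 1208 CPM in Bmal1IEC-/- mice, and its log2 difference was 0.02 over 48 mice (SE 0.04, adjusted p = 0.726) and -0.01 over 46.

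Of the 5 genes that set light chain phosphorylation, 1 passed the test over 48 mice. *Ppp1r12b*, a myosin-targeting subunit of the phosphatase, ran from 193 to 284 CPM in control (median 214) and from 46.9 to 259 CPM in Bmal1IEC-/- mice (median 190). Its log2 difference was -0.26 (SE 0.08, adjusted p = 0.0166), 16.5% lower, and it passed over 46 mice as well (-0.19, SE 0.04, adjusted p = 0.00243). The kinase *Mylk* had -0.16 over 48 mice (SE 0.06, adjusted p = 0.0944) and passed over 46 (-0.10, SE 0.03, adjusted p = 0.00934). *Ppp1r12a*, the widely expressed relative of *Ppp1r12b*, had the difference nearest 0 of the 5, at -0.10.

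Among the 7 thin filament regulators 1 passed over 48 mice. *Cnn1*, calponin, which restrains the myosin motor, ran from 226 to 475 CPM in control (median 344) and from 71.8 to 402 CPM in Bmal1IEC-/- mice (median 293), with a log2 difference of -0.28 (SE 0.09, adjusted p = 0.0391). *Cald1*, caldesmon, and *Tpm1*, a tropomyosin, passed over 46 mice, with -0.16 (SE 0.04, adjusted p = 0.00854) and -0.10 (SE 0.03, adjusted p = 0.0184). Neither intermediate filament gene passed in either set; *Des*, desmin, ran from 377 to 790 CPM in control and from 140 to 614 CPM in Bmal1IEC-/- mice, with a log2 difference of -0.24 (SE 0.09, adjusted p = 0.0816).

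Of the 9 genes of dense bodies and plaques, 3 passed over 48 mice, *Synpo2* among them. *Actn1* ran from 179 to 232 CPM in control (median 198) and from 138 to 223 CPM in Bmal1IEC-/- mice (median 187), a log2 difference of -0.14 (SE 0.04, adjusted p = 0.0105) or 9.19%. *Csrp1*, a LIM protein of the actin cytoskeleton, ran from 299 to 524 CPM in control (median 432) and from 161 to 495 CPM in Bmal1IEC-/- mice (median 385), a log2 difference of -0.20 (SE 0.06, adjusted p = 0.0207) or 13.1%. Over 46 mice the LIM protein *Pdlim3* passed too (-0.13, SE 0.04, adjusted p = 0.017). *Vcl* had the difference nearest 0 of the 9, at -0.08 over 48 mice. Of the remaining roles, *Hspb6*, *Myocd* and *Srf* did not pass, with -0.14, -0.26 and -0.03, nor did *Kcnmb1*, the accessory subunit of the *Kcnma1* channel (-0.26, SE 0.10, adjusted p = 0.1), and *Cacna1c*, the pore of the L-type calcium channel (-0.26, SE 0.10, adjusted p = 0.0832).

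**Figure D3:**
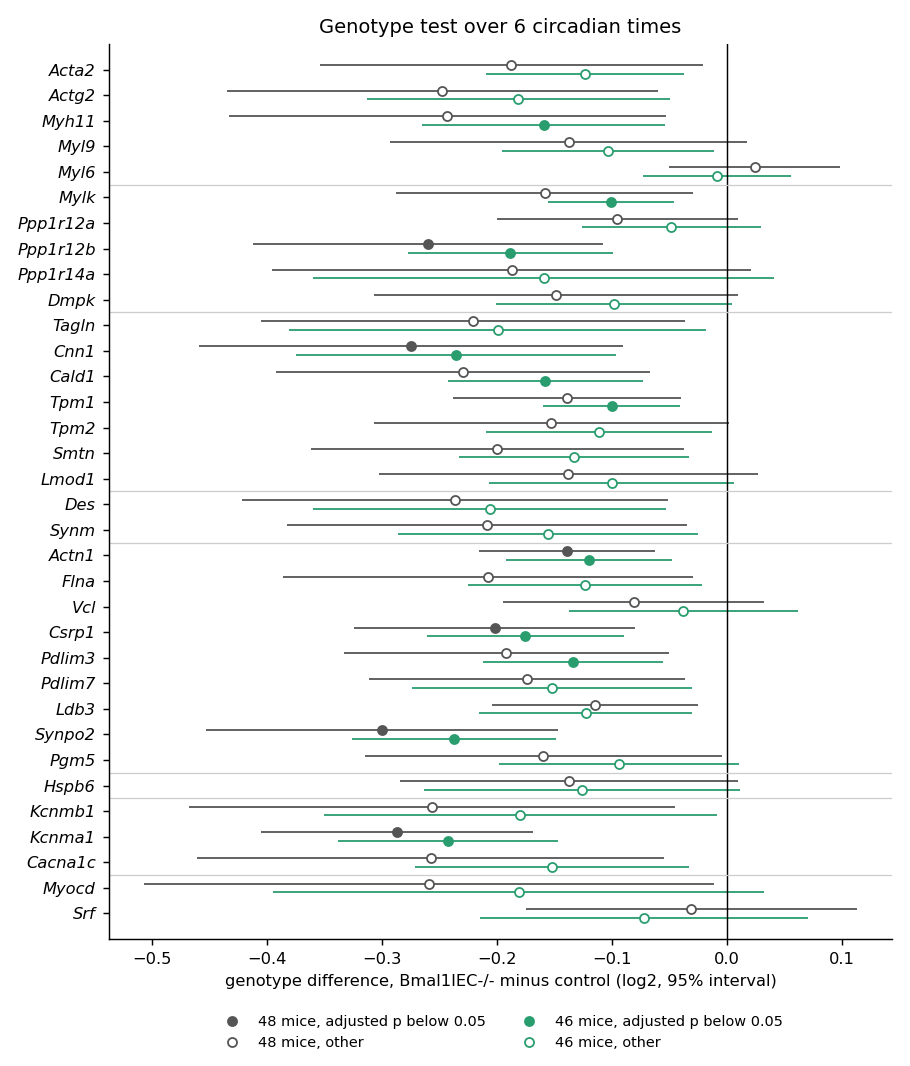
Genotype difference of each of the 34 genes (log2, Bmal1IEC-/- minus control, horizontal axis) with its 95% interval, over 48 and over 46 mice; filled points have an adjusted p below 0.05. All points but that of *Myl6* over 48 mice (0.02) are left of 0, and the intervals over 46 mice are narrower.

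The sum of the epithelium markers was higher on average in Bmal1IEC-/- mice, with overlapping ranges, and the difference was not tested. The gap was largest at CT1 (6297 CPM in control against 8494 CPM in Bmal1IEC-/- mice without SV385). At CT9 it was reversed (8428 against 8343 CPM). The 12 markers summed to 7602 ± 911 CPM in control mice (SD, n = 24) and to 8144 ± 743 CPM in Bmal1IEC-/- mice without SV385 (n = 23), with ranges of 5988 to 9243 and 7270 to 9814 CPM and no marker at 0. The means of other lists, in control against Bmal1IEC-/- mice without SV385 and with no test, were 1532 against 1409 CPM for fibroblast markers, 619 against 556 CPM for pericyte markers, 161 against 142 CPM for endothelial markers, 209 against 176 CPM for neuron markers, 913 against 886 CPM for markers of interstitial cells of Cajal and 399 against 465 CPM for immune cell markers. The fibroblast difference also lay within the spread between mice, with an SD of 294 CPM in Bmal1IEC-/- mice. With the mean log2 level of the epithelium markers as a covariate, 2 of the 6 kept their call, *Kcnma1* (-0.17, adjusted p = 0.00648) and *Actn1*, and the median of the 34 genes was -0.10, with 33 under 0, *Myl6* among them. Beyond this fit, the part of tissue makeup in the difference was not tested.

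At single times the difference was largest at CT1. The summed level of the 34 genes there was 12518, 12435, 13910 and 11739 CPM in the 4 control mice, above all 4 Bmal1IEC-/- mice. At the other 5 times the sums of the genotypes overlapped. Without SV385 the mean of the genes was lower in Bmal1IEC-/- mice at all 6 times for 19 of the 34, at 5 times for 11, at 4 times for 3 and at 3 times for *Myl6*. The share of all genes that were lower at all 6 times is not given here, and the 34 genes were read in the same mice. In edgeR without SV385, 29 to 32 of the 34 were under 0 at each single time, against 48.4% to 51.8% of all genes.

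The test at CT1 called 22 of the 34 genes over 48 mice, 21 lower and *Myl6* higher (0.24, SE 0.09, edgeR adjusted p = 0.0404), against 11.0% of all genes called lower there. This count depended on SV384 and SV385. It was 12 without SV385 alone, where the share of all genes is not given. It was 2 without SV384 and SV385, against 0.597% of all genes. Leaving out control replicates SV454 or SV468 gave 14 in each case. The 3 genes with the smallest adjusted p over 48 mice were *Cacna1c* (-1.21, SE 0.22, adjusted p = 0.000208), *Flna*, the actin crosslinker filamin A (-0.92, SE 0.19, adjusted p = 0.000786), and *Ppp1r12b* (-0.84, SE 0.17, adjusted p = 0.000506). *Cacna1c* was at 42.8, 46, 48.3 and 53.8 CPM in the control mice and at 13.3 (SV384), 5.41 (SV385), 27.2 and 35.2 CPM in the Bmal1IEC-/- mice, so every control mouse was above every Bmal1IEC-/- mouse. Over 46 mice its difference was -0.62 (SE 0.17) and just missed the threshold (adjusted p = 0.0502), as *Flna* and *Ppp1r12b* did.

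*Mylk* and *Cald1* were the pair still called at CT1 without SV384 and SV385. *Mylk* was at 717, 734, 762 and 793 CPM in control mice and at 558, 195, 590 and 624 CPM in Bmal1IEC-/- mice, in the order SV384, SV385, SV479 and SV480. *Cald1* was at 322, 346, 369 and 378 CPM in control mice and at 227, 62.2, 243 and 269 CPM in Bmal1IEC-/- mice in the same order. The genotypes did not overlap for either gene. Over 46 mice *Mylk* differed by -0.32 (SE 0.07, adjusted p = 0.0238) and *Cald1* by -0.48 (SE 0.12, adjusted p = 0.0302). Control mice at CT1 also had the lowest epithelium sum of the 12 groups, at 6297 CPM (5988 to 6564), against 7859, 8287 and 9336 CPM in the Bmal1IEC-/- mice other than SV385. Its part in the CT1 differences was not tested.

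At CT13 only *Actn1* was called (-0.31, SE 0.09, adjusted p = 0.0344), against 1.75% of all genes called lower. It ran from 181 to 202 CPM in control and from 142 to 179 CPM in Bmal1IEC-/- mice, without overlap, and leaving out any 1 of 6 mice ended the call (control replicates SV396, SV397 and SV424 and Bmal1IEC-/- replicates SV448, SV449 and SV450). At CT5, CT9, CT17 and CT21 edgeR called 0 of the 34 genes, where 0.123%, 0.650%, 0.540% and 0.178% of all genes were called lower; 1, 1, 0 and 1 of the 34 had an unadjusted p below 0.05. A test of the genotype difference across the 6 times called 0 of the 34 genes over 48 mice (3.98% of all genes, 6 of the 34 with an unadjusted p below 0.05) and 0 over 46 mice (0.504% of all genes, 0 with an unadjusted p below 0.05). A difference between CT1 and the other times was thus not shown for any single gene.

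Rhythms of the 34 genes in RNA of the whole tissue were tested with a 24-h cosine in each genotype. In control mice the contractile genes had small rhythms, and most of those that passed peaked around the start of the circadian day. Over 48 mice 6 of 34 passed (edgeR F test, adjusted p below 0.05), against 45.1% of all genes tested, and over 46 mice 14 passed, against 48.6%. The median size from trough to peak was 0.28 on the log2 scale for the 34 genes and 0.39 for all genes tested. Over 46 mice the 14 had folds from 1.13 to 1.56, and 10 of them peaked between 21 and 5 h. The share of all rhythmic genes that peaked in this window is not given here, so this timing is not shown to be particular to the 34 genes. SV384 and SV385 are not control mice; they enter through the spread that the groups share, and without SV385 alone 13 passed. Without control CT1 replicate SV454, 3 passed.

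*Tpm1* and *Cald1* had the clearest rhythms in control mice. *Tpm1* had a mean of 1051 CPM at CT1 (995 to 1106), 777 CPM at CT13 (738 to 828) and 1040 CPM at CT21 (960 to 1102), so that every mouse at CT1 and CT21 was above every mouse at CT13. Its fitted fold was 1.31 with a peak at 1.27 h (adjusted p = 0.00806 over 48 mice, 3.57e-05 over 46). *Cald1* had a mean of 354 CPM at CT1 (322 to 378), 225 CPM at CT13 (211 to 248) and 300 CPM at CT21 (255 to 327), again with no overlap between CT1 and CT13. Its fitted fold was 1.44 with a peak at 1.32 h (adjusted p = 0.0181 over 48 mice, 7.72e-06 over 46).

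*Kcnmb1* had the largest fitted fold over 48 mice, 1.57 with a peak at 4.13 h (adjusted p = 0.0191), with means of 14.7 CPM at CT1 and 9.03 CPM at CT17. *Synm*, the intermediate filament protein synemin, followed at 1.49 with a peak at 0.20 h (adjusted p = 0.0285), and *Vcl* had 1.26 with a peak at 21.9 h (adjusted p = 0.0387). *Srf* ran against these, with 1.36 and a peak at 14.8 h (adjusted p = 0.0352): its mean was 24.2 CPM at CT1 and 35.2 CPM at CT13. Over 46 mice *Acta2* (1.37, peak at 2.37 h, adjusted p = 0.000715), *Actg2*, *Mylk*, *Csrp1* and *Pgm5* joined the genes that peaked near CT1, and *Lmod1* (1.41, peak at 16.4 h, adjusted p = 0.000727), *Myl6* and *Myl9* passed with peaks elsewhere. *Acta2* means in control mice were 1200 CPM at CT1 and 852 CPM at CT13.

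**Figure D4:**
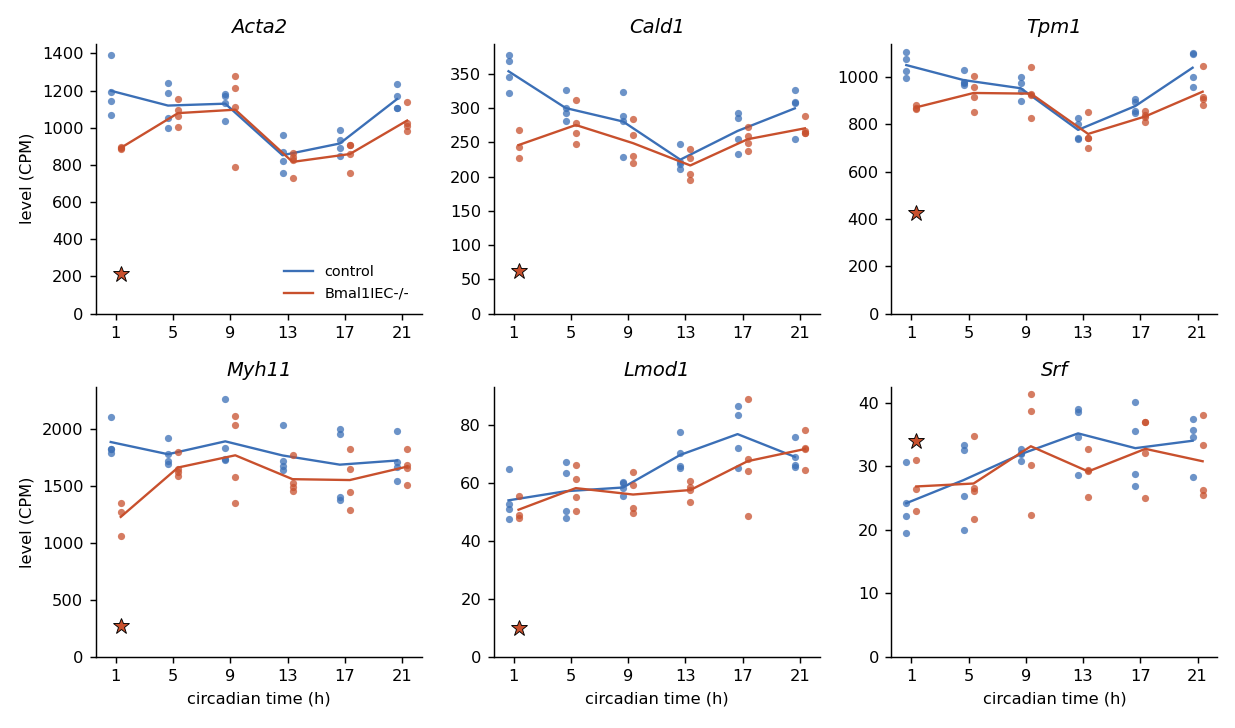
Level (CPM, vertical axis, from 0) of 6 genes against circadian time (h) in control and Bmal1IEC-/- mice; points are mice, lines join group means without SV385, and the star marks SV385. *Acta2*, *Cald1* and *Tpm1* are lowest at CT13 in both genotypes. At CT1 the Bmal1IEC-/- mice are below the control mice for these genes and *Myh11*, whereas the genotypes overlap for *Lmod1* and *Srf*.

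Epithelium markers also varied with time in control mice. They were higher at CT13 than at CT1, whereas *Tpm1* and *Cald1* were lower and *Srf* was higher. The summed level of the 34 genes did not mirror them, with means of 12651 CPM at CT1, 12648 at CT9 and 11014 CPM at CT13. The epithelium markers summed to 6297 CPM at CT1, 7632 at CT5, 8428 at CT9, 8433 at CT13, 7380 at CT17 and 7439 CPM at CT21. With their mean log2 level as a covariate, none of the 6 rhythmic genes kept its call (*Cald1* 0.20 on the log2 scale, adjusted p = 0.517; *Tpm1* 0.24, adjusted p = 0.193), and 3 others passed (*Kcnma1*, *Lmod1* and *Myocd*).

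In Bmal1IEC-/- mice 2 of the 34 genes passed over 48 mice, against 27.5% of all genes, and 7 over 46 mice, against 26.1%. *Ppp1r12b* had a fold of 1.43 with a peak at 13.2 h (adjusted p = 0.0304) over 48 mice, where its CT1 mean of 123 CPM included SV385 at 46.9 CPM. Without SV384 and SV385 it did not pass (fold 1.19, adjusted p = 0.125). *Vcl* passed in both sets, with 1.27 and a peak at 20.4 h (adjusted p = 0.0413) over 48 mice and 1.34 at 21.7 h (adjusted p = 0.00543) over 46. *Pdlim3* (1.36, peak at 12.9 h, adjusted p = 0.053), *Cacna1c* (1.49, 12.1 h, adjusted p = 0.0684) and *Myl9* (1.37, 10.4 h, adjusted p = 0.0707) came next over 48 mice and did not pass. The 7 genes over 46 mice were *Acta2*, *Mylk*, *Tpm1*, *Actn1*, *Vcl*, *Myl9* and *Lmod1*, with folds from 1.13 to 1.34, and 5 of them peaked between 21 and 5 h. For this window too the share of all rhythmic genes is not given. The count of genes that passed was 9 without SV385 alone and 1 without SV384 alone. It was also 1 without any 1 of SV410, SV449, SV399, SV416, SV437, SV444 and SV470, and 4 without SV471.

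The genes rhythmic in control were not shown to have changed their rhythm. The test of the difference of the cosine between genotypes called 0 of the 34 genes in edgeR over 48 mice (0 with an unadjusted p below 0.05, against 1.92% of all genes called) and 0 over 46 mice (1 with an unadjusted p below 0.05, against 0.935% of all genes called), and DESeq2's likelihood ratio test called 0. The smallest adjusted p over 48 mice were those of *Kcnmb1* (0.335), *Ppp1r12b* (0.391) and *Cacna1c* (0.406). Over 46 mice 6 genes passed in both genotypes (*Acta2*, *Myl9*, *Mylk*, *Tpm1*, *Lmod1* and *Vcl*), with peaks in Bmal1IEC-/- mice from 0.51 h earlier to 2.60 h later. The share of all genes that passed in both genotypes is not given here. The fitted rhythm was larger in control mice for 27 of the 34 genes over 46 mice, against 67.2% of all genes, and for 18 over 48 mice, against 63.4%.

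The size of a change in day-night difference that these mice leave possible can be read from day (CT1, CT5 and CT9) against night. This contrast is not the fitted rhythm, because CT21, where *Tpm1* was high, counts as night. For *Tpm1* over 48 mice it was 0.15 in control, against a fitted 0.39 from trough to peak. Over 46 mice the day minus night difference of *Cald1* was 0.24 in control and 0.07 in Bmal1IEC-/- mice on the log2 scale, and the change was -0.16 with a 95% interval from -0.38 to 0.05. For *Tpm1* the change was -0.03 (-0.20 to 0.14), and for *Acta2* it was -0.03 (-0.25 to 0.19). For *Kcnmb1*, with 0.42 in control and 0.26 in Bmal1IEC-/- mice, the change was -0.16 and its interval from -0.49 to 0.18 was wider, at a mean of 43.3 counts per mouse. The intervals of these 4 genes span 0, and each reaches far enough below it to hold a full loss of the control day-night difference.

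**Figure D5:**
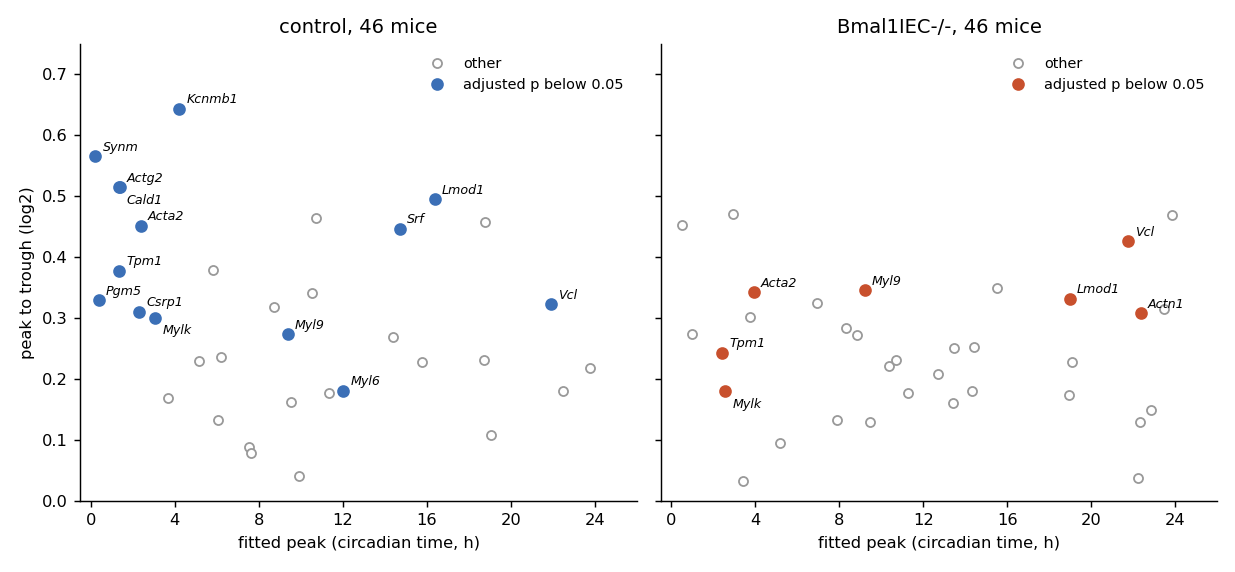
Fitted trough-to-peak size (log2, vertical axis) against fitted peak time (h) of each of the 34 genes in control (left) and Bmal1IEC-/- mice (right), over 46 mice; filled points have an adjusted p below 0.05. The 14 filled control points lie mostly between 21 and 5 h, and the right panel has 7.

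The wider contraction pathway was read from lists of receptors, calcium handling, calcium sensitization, cyclic nucleotide relaxation, membrane anchorage and transcription factors, and 0 genes of these lists were called higher over 48 mice. Of the receptors and ligands, 2 of 14 tested genes were called lower, against 5.56% of all genes tested, and 13 were under 0, with a median of -0.20. The same 5.56% applies to the counts called lower in the other lists below, each of which holds few genes. *Oxtr*, the oxytocin receptor, had the largest difference of all these lists, -0.99 (SE 0.18, edgeR adjusted p = 6.1e-05) over 48 mice, and passed over 46 as well (adjusted p = 0.000107). *Ednrb*, the endothelin B receptor, was lower by a smaller margin (-0.26, SE 0.07, adjusted p = 0.00882), and *Adrb3*, the beta-3 adrenergic receptor, did not pass (-0.68, SE 0.24, adjusted p = 0.0559).

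Of the calcium release and entry genes 3 of 11 were called lower, with a median of -0.25: *Cacna1h*, a T-type calcium channel (-0.29, SE 0.07, adjusted p = 0.00159), *Cacna2d1*, an accessory channel subunit (-0.25, SE 0.07, adjusted p = 0.0132), and *Itpr1*, the channel that releases stored calcium (-0.23, SE 0.07, adjusted p = 0.0187). Of the cyclic nucleotide genes 2 of 11 were called, the subunits of guanylate cyclase that respond to nitric oxide, *Gucy1a1* (-0.27, SE 0.08, adjusted p = 0.0113) and *Gucy1b1* (-0.23, SE 0.07, adjusted p = 0.0312). Of them *Gucy1b1* was lost over 46 mice (adjusted p = 0.053), and *Pde5a*, which degrades cyclic GMP, did not pass (-0.13, adjusted p = 0.0705). *Gucy1a1* also stands among the markers of interstitial cells of Cajal used above.

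The dystrophin, caveola and integrin list had 3 of 17 called lower, with a median of -0.12. They were *Dtna* (-0.28, SE 0.09, adjusted p = 0.0253) and the caveola genes *Cav1* (-0.22, SE 0.07, adjusted p = 0.0371) and *Cavin1* (-0.18, SE 0.06, adjusted p = 0.0407). The myocardin-related factors had 1 of 11, a share near that of all genes, namely *Mef2c*, a muscle transcription factor (-0.28, SE 0.09, adjusted p = 0.0328, lost over 46 mice), whereas *Mef2a* (-0.10) and *Hopx* (0.09) did not pass. The calcium sensitization list, whose genes most cell types use, was not shifted: 0 of 12 were called in edgeR, 7 were under 0 and the median was -0.01, with *Rhoa* at 0.07 (SE 0.02, adjusted p = 0.0565), *Pak1* at 0.06 and *Arhgef12* at -0.08. No gene of the 6 lists had a change of rhythm that passed the test over 48 or 46 mice.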

How the data were processed

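Colon RNA was sequenced from 24 control and 24 Bmal1IEC-/- mice. Per the study's methods, the authors trimmed reads with Trimmomatic 0.39, aligned them to mm10 with STAR 2.7.5c and counted exon reads per gene with featureCounts 1.4.6, leaving out reads on several features, chimeric reads and reads of low mapping quality. The deposited values are these counts, not normalized; the strand setting and annotation release are not given in the sources used here. Symbols, positions and exon lengths came from GENCODE vM21.

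Counts were tested with edgeR 4.0.16 in R 4.3.3 (TMM, filterByExpr, quasi-likelihood F tests, Benjamini-Hochberg over all genes tested, threshold 0.05). The models were genotype plus time, 12 group means, and a 24-h cosine and sine per genotype. DESeq2 1.42.0, a separate JTK_cycle, other scalings and filters, an epithelium covariate and leaving out each mouse or time were alternatives. The 47-mouse set, leaving out CT1 as a set of its own and the day-night model were added after seeing the data. The steps were tested on simulated data.

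The members and lists were chosen with earlier results of these data known. Values are given for *Acta2*, *Actg2*, *Myh11* and *Des*, and, by smallest adjusted p, up to 5 members per direction of the genotype test and per rhythm test, 3 for the change of rhythm, up to 3 per circadian time and 3 per pathway list; other names were chosen after their values were seen. Replicates are separate mice, and no batch is labelled. With counts under 3 a gene could not be told from absence, and this floor covers counting error only.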

Additional observations from a re-analysis of the deposited data

Results flagged for a closer look

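In each group of 4 mice, a mouse far from the other 3 was looked for (its gap to the nearest mouse set against the range, by Dixon's test) in the summed level of the 34 genes and in 20 of them. Each group was read for 21 items, which gave 252 readings. Of these, 20 held such a mouse, where chance gives about 1 in 20 for independent readings. The readings are not independent, because the genes were read in the same mice and the sum contains them.

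Of the 20, 4 were Bmal1IEC-/- CT1 replicate SV385, which was lowest in the summed level (3849 CPM, the other 3 from 9739 to 10361), *Acta2* (213 CPM, others 887 to 898), *Tpm1* (425 CPM, others 866 to 882) and *Des* (140 CPM, others 454 to 507). SV395 at Bmal1IEC-/- CT13 was highest for *Actg2* (753 CPM, others 470 to 497) and *Des* (590 CPM, others 313 to 357). Control CT17 replicate SV438 was highest for *Ppp1r12b* (284 CPM) and *Pdlim3* (124 CPM).

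In the other control groups, *Actg2* was high in SV442 at CT5 (1058 CPM), *Myh11* in SV468 at CT1 (2104 CPM) and *Pdlim3* in SV415 at CT9 (146 CPM), and *Synm* was low in SV469 at CT1 (152 CPM), *Csrp1* in SV397 at CT13 (299 CPM), *Synpo2* in SV446 at CT5 (195 CPM) and *Kcnma1* in SV455 at CT1 (46.2 CPM). In the other Bmal1IEC-/- groups, *Myl9* was high in SV440 at CT5 (488 CPM), *Myl6* in SV410 at CT9 (1201 CPM), *Cald1* in SV444 at CT21 (288 CPM), *Kcnma1* in SV448 at CT13 (52.7 CPM) and *Cacna1c* in SV437 at CT17 (44.7 CPM).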

How the results depend on the processing

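The count of the 34 genes called in the genotype test was 6. It was 11 over 46 mice, 14 over 47 mice (without SV385), 11 with no filter, 2 with the epithelium covariate, 2 with no time term, 0 with a fold change of 1.5 required as well, and 5 to 14 with single mice left out. The direction of *Myl6* turned over 46 mice (-0.00878), with the covariate (-0.0325) and without CT1 (-0.0167). The control rhythm count was 6, and 14 over 46 mice, 13 over 47, 3 with the covariate, 15 by JTK_cycle adjusted over phases only, and 3 to 13 with single mice left out. The Bmal1IEC-/- rhythm count was 2, and 7 over 46 mice, 9 over 47, 4 with no filter, 5 with the covariate, 12 with time as a factor, 0 and 4 by JTK_cycle adjusted over genes and over phases only, and 1 to 9 with single mice left out. Of all 14618 genes tested, JTK_cycle adjusted over phases only called 7273 in control and 4270 in Bmal1IEC-/- mice. Adjusted over genes it called 5921 and 2152. In control mice the latter included *Acta2*, *Actg2*, *Cald1*, *Kcnmb1*, *Lmod1*, *Mylk*, *Pgm5*, *Synm* and *Tpm1*. For the alternatives here other than 46 mice and JTK_cycle, the share of all genes called is not given. At CT1 the count was 22, and 2 over 46 mice, 12 over 47, and 12 to 23 with single mice left out. At CT13 it was 1, and 0 with no filter and 0 to 1 with single mice left out, and at CT21 it was 0, and 3 with no filter. Changed rhythms stayed at 0 in every alternative run, 0 to 0 with single mice left out. DESeq2 size factors and TMM without the 34 genes changed no count by over 1.5 times, and DESeq2 called 9 in the genotype test. Apart from the sets of mice, the cause of these changes was not tested. No paired analysis was possible because every mouse has its own replicate number. Precision is limited by 4 mice a group and by low counts in *Kcnmb1*, *Tagln*, *Ppp1r14a* and *Myocd*.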

Other observations

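The 5 genes with a CArG box near their start were compared with their level in SV385 after both had been seen, and no test was made. In percent of the other 3 mice of the group, *Srf* was at 127%, *Myl6* at 95.7%, *Ldb3* at 95.2% and *Vcl* at 68.8%, whereas *Myl9*, the regulatory light chain of smooth muscle myosin, was at 25.6%. The first 4 are among the 5 least lowered of the 34 genes. The comparison could not include *Actg2*, *Myh11*, *Tagln* and *Myocd*, which had no promoter window. In SV385 these were at 24.5%, 21.9%, 52.9% and 20.6%. *Acta2*, whose window holds a near match to the box that was not counted, was at 23.9%.

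Of the lists not described above, the 5 adipocyte markers summed to a median of 82.0 CPM in control mice (25.2 to 306) and 43.4 CPM in Bmal1IEC-/- mice without SV385 (24.4 to 262), with wide overlap. The 8 skeletal muscle markers were low, with medians of 17.9 and 16.5 CPM and 1 gene at 0 in every mouse. The 6 pancreas markers did not exceed 1.97 CPM in any mouse. The 4 mesothelium markers, which include the epithelium marker *Krt19*, had medians of 1030 and 1139 CPM.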
